A study of Homo sapiens with 2 samples.

Results

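The ERBB receptors and their ligands were examined in CWR22rv1 cells, a human prostate cancer line. The members are the receptor genes EGFR, ERBB2, ERBB3 and ERBB4 and the ligand genes AREG, EREG, HBEGF, TGFA, NRG1 and BTC. They were chosen by gene symbol, and all 10 were found among the 19607 genes of the expression table. RNA had been sequenced from 1 library of CWR22rv1/Akt1/2 DKO cells, in which Cas9 was directed to AKT1 and AKT2 together, and from 1 library of control cells labelled wild type. Akt1/2 DKO cells were isolated as monoclonal cells after puromycin selection, the labels do not give the clone that was sequenced, and no separate treatment of the control is described. With 1 library per group no difference has a replicate check, so no p-value is given, and every interval below is a 95% exact interval that covers counting error only.

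ERBB receptors are tyrosine kinases of the cell surface that pair on ligand binding and pass the signal to the RAS-ERK and PI3K-Akt pathways. EGFR binds EGF, TGFA and AREG, ERBB3 and ERBB4 bind neuregulins, and HBEGF, BTC and EREG act on both EGFR and ERBB4. ERBB2 has no known ligand of its own and ERBB3 has a nearly inactive kinase, so both depend on partners, and ERBB3 is the member that recruits PI3K most directly. In prostate epithelium EGFR is typical of basal cells, while ERBB2 and ERBB3 are found in luminal cells. Transcription of ERBB3 is known to be held down by Akt through the FOXO factors.

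The libraries held 9970825 reads in control and 10718654 in Akt1/2 DKO, and trimmed mean of M values (TMM) scaling set their ratio at 1.11. AKT1 had 2645 reads in control and 591 in Akt1/2 DKO, a fold of 4.96 lower, and AKT2 had 2362 and 667, 3.93-fold lower, in the direction of the labels. All 12 markers of luminal prostate epithelium were detected in both libraries, with 3 at least 1.5-fold higher in Akt1/2 DKO and 7 lower. Of 6 basal markers, TP63 and KRT5 had 0 reads in both libraries, and the summed FPKM of the list was 4.04 in control and 7.68 in Akt1/2 DKO. That sum rests on DST (149 and 803 reads), while KRT15 had 13 and 0 reads, KRT14 2 and 0, and KRT6A 0 and 2. Summed FPKM was 3.56 and 4.10 for fibroblast markers, 0.240 and 0.320 for endothelium, 0.450 and 0.660 for leukocytes, and 109 and 168 for neuroendocrine markers, and their part in the results below was not tested. Of the neuroendocrine markers, ENO2 had 1404 and 3198 reads, SYP 752 and 998, CHGA 340 and 2, and INSM1 0 in both. A difference in bulk RNA cannot tell fewer cells that carry a transcript from less of it per cell.

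EGFR was almost lost from the Akt1/2 DKO library, AREG fell with it, and ERBB4 and HBEGF were higher, while ERBB2 and ERBB3 moved little. Of the 10 members, 8 reached a sum of 10 reads over both libraries, the limit for a fold to be computed. Among these 8, ERBB4 and HBEGF were higher in Akt1/2 DKO by 1.5-fold or more and EGFR and AREG were lower. The background over all 13318 genes that reached the limit was 30.9% past 1.5-fold, as 15.9% were higher and 15.0% lower, and 4 of 8 members stand beside that share. With a sum of 50 reads or more, 3 of 6 members and 25.7% of genes passed. All 4 members also had a counting interval that excluded no change, as 27.0% of genes did past 1.5-fold, and all 4 passed 2-fold, as 17.9% of genes did. In absolute terms, the log2 fold changes of the 8 had a median of 0.84, against 0.33 over all tested genes, and their signed median was 0.41, against 0.01.

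**Figure D1:**
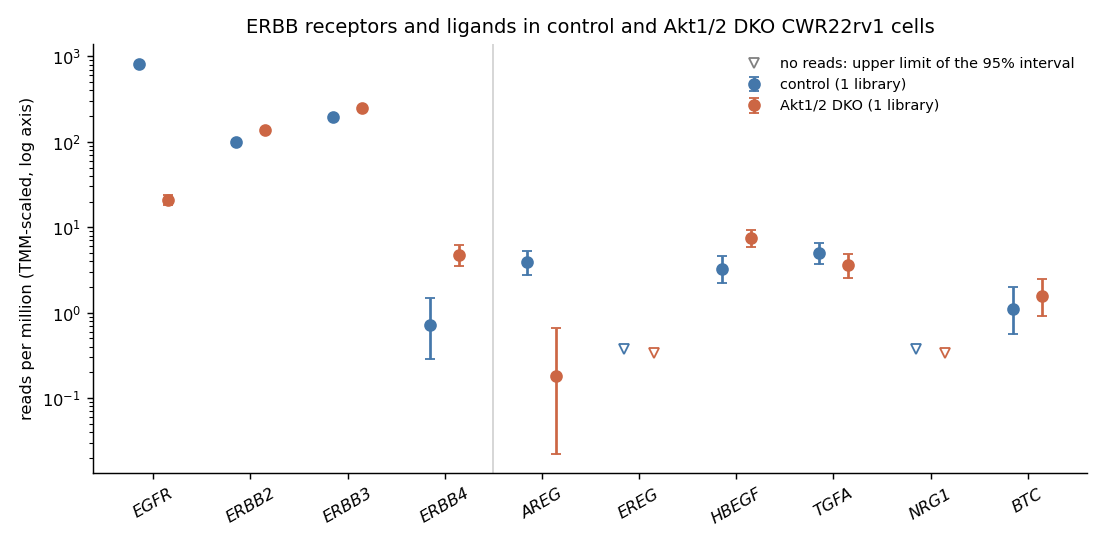
CPM, the reads of a gene scaled to library size with TMM (log axis), of each member by library, with 95% exact Poisson intervals. EGFR went from 806 to 20.7 CPM, ERBB2 and ERBB3 were at 99.0 CPM or more in both libraries, and open triangles mark the upper limit for EREG and NRG1, which had no reads.

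EGFR (ENSG00000146648) encodes the receptor for EGF itself. It lies on chromosome 7 from 55019021 to 55211628 on the plus strand of GRCh38. It had 7912 reads in control and 225 in Akt1/2 DKO, or 806 CPM (95% interval 788 to 824) and 20.7 CPM (18.1 to 23.6). EGFR was thus 39.0-fold lower in Akt1/2 DKO, with bounds of 34.1 and 44.7, or -5.28 on the log2 scale. By number of reads EGFR ranked 110 of 19607 genes in control and 7916 in Akt1/2 DKO. Of the 2370 genes with at least 1000 reads in control, 5 fell by a larger fold. EGFR transcripts were still detected in Akt1/2 DKO, at 3.36 FPKM. The antisense gene EGFR-AS1 shares 186 exonic bases with EGFR, and whether reads were counted by strand is not given in the sources used here.

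The promoter windows of the members that moved at least 1.5-fold were printed because their transcript levels differed between the libraries. RefSeq (GRCh38.p14) windows were searched for 8 of the 10 members, and none was at hand for ERBB3 and NRG1. The bases shown are the 250 before the annotated start, 5′ to 3′ on the strand of the gene. Capitals mark matches, on either strand, to the motifs described here. These are GTAAACA (reverse strand TGTTTAC), bound by FOXO factors, TGANTCA, bound by AP-1, TGACGTCA, the cyclic AMP response element, and TATAAA (reverse strand TTTATA), the TATA box.
EGFR chr7:55018767-55019016 (+): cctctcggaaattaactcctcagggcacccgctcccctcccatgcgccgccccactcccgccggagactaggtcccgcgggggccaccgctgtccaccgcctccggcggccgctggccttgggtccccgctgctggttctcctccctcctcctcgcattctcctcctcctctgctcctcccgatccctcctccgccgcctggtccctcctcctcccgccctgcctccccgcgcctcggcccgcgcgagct
AREG chr4:74444886-74445135 (+): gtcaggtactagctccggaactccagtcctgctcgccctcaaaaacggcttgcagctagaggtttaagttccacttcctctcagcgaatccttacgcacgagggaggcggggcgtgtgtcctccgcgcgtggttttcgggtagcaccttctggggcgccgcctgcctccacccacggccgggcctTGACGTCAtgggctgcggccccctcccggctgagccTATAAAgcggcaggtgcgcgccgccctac
ERBB4 chr2:212538803-212539052 (-): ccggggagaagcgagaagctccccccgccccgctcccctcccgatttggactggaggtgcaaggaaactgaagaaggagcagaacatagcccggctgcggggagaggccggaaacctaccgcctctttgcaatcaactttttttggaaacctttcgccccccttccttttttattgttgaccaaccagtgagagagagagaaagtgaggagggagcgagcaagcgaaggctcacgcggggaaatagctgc
HBEGF chr5:140346604-140346853 (-): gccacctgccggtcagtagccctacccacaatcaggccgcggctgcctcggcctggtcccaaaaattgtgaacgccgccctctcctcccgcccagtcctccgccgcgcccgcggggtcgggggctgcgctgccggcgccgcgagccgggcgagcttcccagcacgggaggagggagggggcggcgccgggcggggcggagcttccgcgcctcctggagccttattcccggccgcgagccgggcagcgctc

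Over its 300 bases, which run 50 bases past the start, the EGFR window was 75.3% GC, as high as or higher than 91.7% of windows, and the AREG window was 66.3% GC. The median over 35116 windows was 58.7%. EGFR, ERBB4 and HBEGF held none of these motifs in these windows, and AREG held the cyclic AMP response element 65 bases and the TATA box 29 bases before its start. Of all windows, 1.85% held the former and 11.5% the latter. RefSeq gives EGFR another start in an intron, on chromosome 7 at 55109839. That window held TGANTCA at 2 places and TATAAA at 2 places, and 7.71% of all windows held TGANTCA. Among the 8 members with a window, the GTAAACA motif was matched in that of BTC alone, and 3.42% of all windows held it. ERBB3 and NRG1 had no window here and were not searched. These matches describe letters in short windows, and nothing about binding was measured.

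ERBB2 and ERBB3, the receptors of luminal cells, kept high levels and were each slightly higher in Akt1/2 DKO. ERBB2 (ENSG00000141736, chromosome 17 from 39687914 to 39730426) had 972 reads in control and 1514 in Akt1/2 DKO. It was 1.40-fold higher (95% interval 1.30 to 1.52), under the 1.5-fold limit. ERBB3 (ENSG00000065361, chromosome 12 from 56076799 to 56103505) had 1909 and 2697 reads, 1.27-fold higher (95% interval 1.20 to 1.35). Both intervals lay above no change. Computed from the deposited FPKM, the difference was 0.30 on the log2 scale in place of 0.49 for ERBB2 and 0.55 in place of 0.35 for ERBB3. ERBB2 shares 571 exonic bases with MIEN1 and 194 with PGAP3, both on the opposite strand.

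ERBB4, the receptor of neuregulins and HBEGF with a complete kinase, was scarce in control and rose. ERBB4 (ENSG00000178568, chromosome 2 from 211375717 to 212538841) had 7 reads in control and 51 in Akt1/2 DKO, 6.57-fold higher with a 95% interval from 2.97 to 17.2. Even after this rise it was at 0.74 FPKM, a small fraction of ERBB2 and ERBB3.

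**Figure D2:**
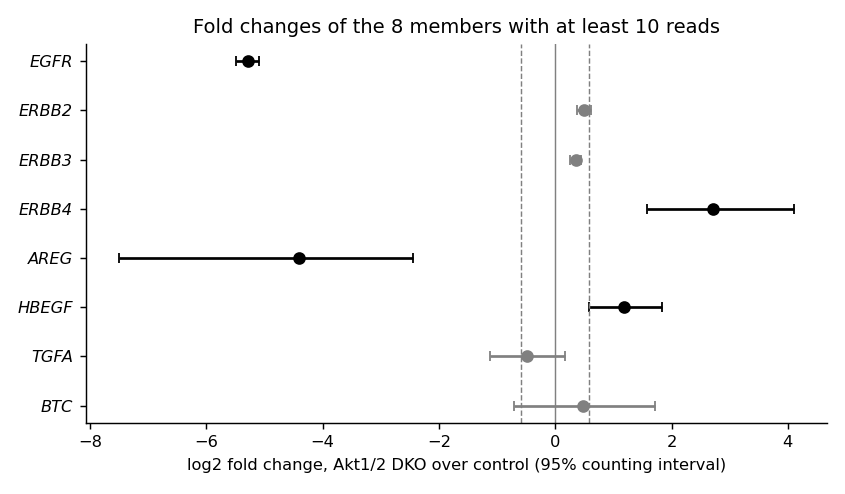
Log2 fold change (Akt1/2 DKO over control) with its 95% exact counting interval for the 8 members that reached 10 reads over both libraries. Black points are at least 1.5-fold from no change (dashed lines at 1.5-fold), and the intervals of TGFA and BTC include no change.

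The order of the receptors changed. FPKM scales reads by transcript length, so it was used for levels between genes, with intervals from the reads. In control EGFR stood at 100.48 FPKM (98.3 to 103), ERBB3 at 35.73 (34.1 to 37.4), ERBB2 at 30.17 (28.3 to 32.1) and ERBB4 at 0.19 (0.0764 to 0.391). In Akt1/2 DKO ERBB3 led at 52.31 FPKM (50.4 to 54.3), followed by ERBB2 at 37.27 (35.4 to 39.2), EGFR at 3.36 (2.94 to 3.83) and ERBB4 at 0.74 (0.551 to 0.973). No neighbours in either order had overlapping intervals. EGFR made up 60.3% of the summed FPKM of the 4 receptors in control and 3.59% in Akt1/2 DKO, and the sum itself went from 167 to 93.7 FPKM. The ratio of EGFR to ERBB2 in FPKM was 3.33 in control and 0.0902 in Akt1/2 DKO. The share of ERBB3 went from 21.5% to 55.8% and that of ERBB2 from 18.1% to 39.8%. With reads per kilobase of union exon length in place of FPKM, the share of ERBB2 was 10% in control and 31.4% in Akt1/2 DKO. Within each library the receptors kept the order that they had by FPKM.

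**Figure D3:**
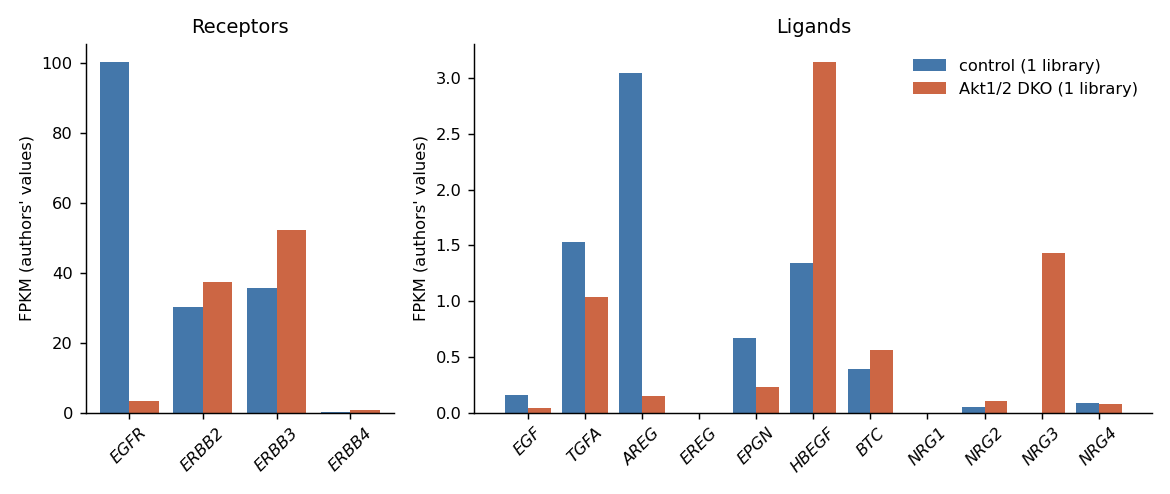
The authors' FPKM of the 4 receptors (left) and of 11 ERBB ligands (right) in the control and Akt1/2 DKO libraries, as bars from 0 on separate linear axes. EGFR is the tallest receptor bar in control and ERBB3 in Akt1/2 DKO, and among the ligands AREG leads in control and HBEGF in Akt1/2 DKO.

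No ligand transcript exceeded 3.15 FPKM in either library, below ERBB2 and ERBB3 in both and below EGFR in control. In Akt1/2 DKO the interval of HBEGF overlapped that of EGFR, and several ligands stood above ERBB4. AREG (ENSG00000109321, chromosome 4 from 74445134 to 74455009) encodes amphiregulin, a ligand of EGFR alone. It had 38 reads in control and 2 in Akt1/2 DKO, 21.1-fold lower. The 95% interval of this fold ran from 5.44 to 180, a wide range that lay wholly below no change. HBEGF (ENSG00000113070, chromosome 5 from 140332843 to 140346631) encodes heparin-binding EGF-like growth factor, a ligand of EGFR and ERBB4. It had 32 reads in control and 81 in Akt1/2 DKO, 2.28-fold higher, with a log2 fold change of 1.19 (0.58 to 1.83). These ligands moved in opposite directions, and the ratio of AREG to HBEGF in FPKM was 2.28 in control and 0.0476 in Akt1/2 DKO.

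TGFA and BTC showed no difference that the depth could resolve. TGFA (ENSG00000163235, chromosome 2 from 70447280 to 70554193) encodes transforming growth factor alpha, a high-affinity ligand of EGFR. It had 49 and 39 reads, with a log2 fold change of -0.48 (95% interval -1.12 to 0.16). BTC (ENSG00000174808, chromosome 4 from 74744759 to 74794686) encodes betacellulin. It had 11 and 17 reads, with a log2 fold change of 0.48 (95% interval -0.70 to 1.72). EREG (ENSG00000124882, chromosome 4) and NRG1 (ENSG00000157168, chromosome 8) had 0 reads in both libraries. The floor set for a count of 0 was 3 reads, or 0.306 CPM in control and 0.276 in Akt1/2 DKO. The exact interval of a count of 0 reached 0.376 CPM in control and 0.339 in Akt1/2 DKO.

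The 5 ERBB ligands outside the members were also scarce, and 1 of them reached 10 reads. NRG3, a neuregulin that binds ERBB4, had 0 reads in control and 35 in Akt1/2 DKO. Against the floor of 3 reads in the control library it was at least 10.5-fold higher, and the exact counting interval put the lower limit at 8.11-fold. EGF had 7 and 2 reads, EPGN 5 and 3, NRG2 1 and 3, and NRG4 1 and 1. In Akt1/2 DKO the ligands stood in the order HBEGF at 3.15 FPKM (2.50 to 3.92), NRG3 at 1.43 (0.996 to 1.99), TGFA at 1.04 (0.740 to 1.42) and BTC at 0.56 (0.326 to 0.897), and the intervals of NRG3 and TGFA overlapped, as did those of TGFA and BTC. In control AREG at 3.05 FPKM (2.16 to 4.19) stood above TGFA at 1.53 (1.13 to 2.02), and TGFA could not be set apart from HBEGF at 1.34 (0.917 to 1.89). HBEGF held 18.4% of the summed ligand FPKM in control and 46.5% in Akt1/2 DKO, AREG went from 41.9% to 2.21%, and the sum was 7.28 and 6.78 FPKM.

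The medians of the genes around the members lay near no change, with single neighbours that moved strongly. For EGFR, the median log2 fold change of the nearest 10 genes on each side with at least 50 reads was 0.07, with 11 higher and 9 lower. The 2 nearest on each side were VSTM2A (0 and 109 reads, at least 32.8-fold higher against the floor of 3 reads), SEC61G (785 and 915), LANCL2 (208 and 187) and VOPP1 (491 and 691). Relative to the start of EGFR, SEC61G lies at -0.259 Mb and LANCL2 at 0.346 Mb, and neither differed by 1.5-fold. Farther out, at -4.226 Mb, GRB10, an adaptor that binds receptor tyrosine kinases, went from 91 to 22 reads, and DDC, at -4.454 Mb, from 267 to 10 reads (29.6-fold lower). AREG, EREG and BTC lie together on chromosome 4, and the neighbours of AREG had a median of -0.08, with 7 higher and 13 lower. Around AREG, ALB went from 1244 to 120 reads, MTHFD2L from 41 to 59, PARM1 from 27 to 116 and THAP6 from 148 to 164. The 2 nearest genes on each side of ERBB4 (CPS1, LANCL1, SPAG16 and BARD1) had log2 fold changes of 0.33, 0.23, 0.08 and 0.43. Those of HBEGF (CYSTM1, PFDN1, ANKHD1 and ANKHD1-EIF4EBP3, the last of which overlap) had 0.16, -0.26, 0.03 and -0.27. The medians around all 10 members lay between -0.08 and 0.12. The highest was that of ERBB3, with 15 neighbours higher and 5 lower. The upper quartile of these neighbours was 0.37, beside a log2 fold change of 0.35 for ERBB3 itself. ERBB2 is often amplified in cancer together with its neighbours. Its own neighbours had a median log2 fold change of 0.00 in these libraries, with STARD3 at 361 and 402 reads. GRB7 had 148 and 252 reads, 1.54-fold higher, and PGAP3 had 277 and 174, 1.76-fold lower.

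**Figure D4:**
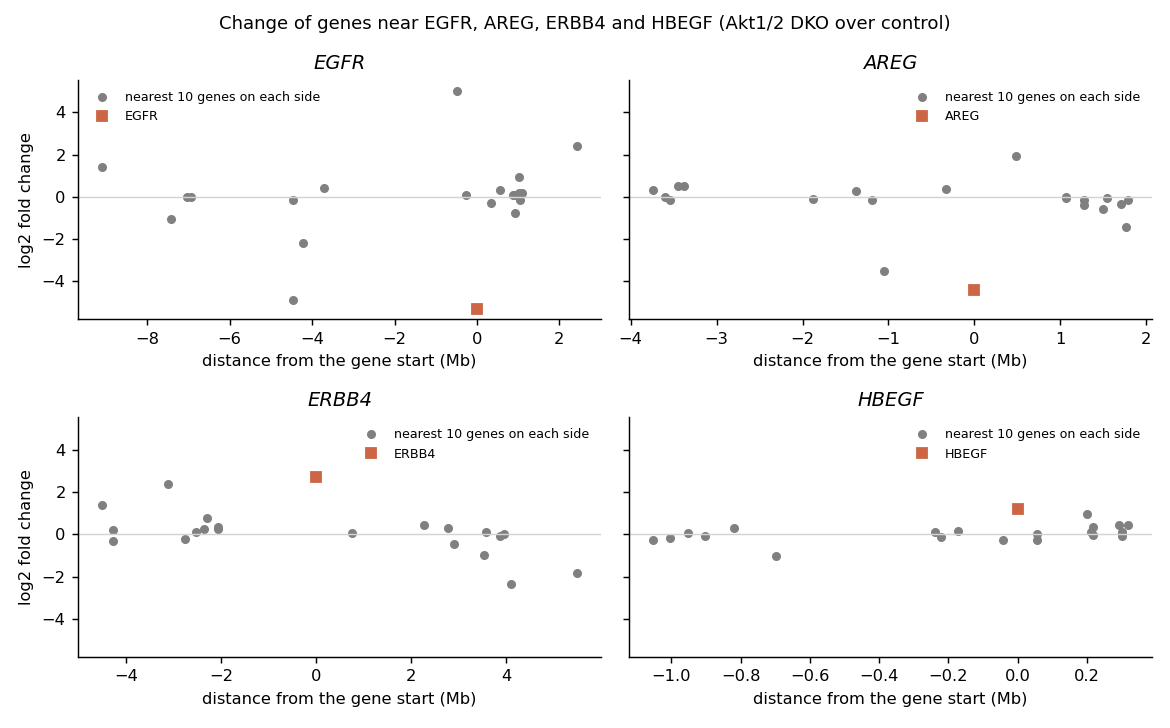
Log2 fold change (Akt1/2 DKO over control) of EGFR, AREG, ERBB4 and HBEGF (squares) and of the 10 nearest genes on each side with at least 50 reads (grey points), by distance from the start of the member in Mb. By point value, EGFR at -5.28 and AREG at -4.40 lie below all of their neighbours, and ERBB4 at 2.72 and HBEGF at 1.19 above all of theirs. The counting interval of AREG takes in ALB at -3.52, that of ERBB4 takes in MAP2 at 2.40, and that of HBEGF takes in EIF4EBP3 at 0.95. Intervals of the neighbours themselves are not given, and DDC, at -4.89 near EGFR, had 10 reads in Akt1/2 DKO.

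Transcripts of the proteins that release ligands from the cell surface were near their control levels or lower. ADAM17, the main sheddase of AREG, HBEGF and TGFA, had 365 and 332 reads. Of 8 tested genes for shedding and maturation, 0 were at least 1.5-fold higher and 3 lower. ADAM10, the sheddase of BTC and EGF, had 899 and 607 reads, 1.64-fold lower (95% interval 1.48 to 1.82), but its FPKM of 24.05 and 20.83 differed by less than 1.5-fold. RHBDF1, an inactive rhomboid that brings ADAM17 to the surface, had 476 and 331, 1.59-fold lower (1.38 to 1.84). The other lower gene was the protease gene NAPSA, with 11 and 5 reads, whose interval included no change. The share of this list past 1.5-fold was 37.5%, beside 30.9% of all genes.

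Adaptors and effectors next to the receptors moved in both directions. Of 29 tested, 5 were higher and 8 lower, or 44.8% beside 30.9% of all tested genes, with a median log2 fold change of -0.16. Without chromosome 3, 5 of 26 were higher and 6 lower (42.3%), with a median of -0.07. Of all 12564 tested genes off that chromosome, 2054 were higher and 1645 lower, with a median of 0.03. GRB10 was 4.59-fold lower, and SRC, the kinase that EGFR signaling engages, had 583 and 203 reads, 3.18-fold lower (95% interval 2.71 to 3.75). SHC2, an SHC adaptor, had 87 and 45 reads, 2.14-fold lower. GAB2, a docking protein for PI3K, had 48 and 149 reads, 2.80-fold higher (2.01 to 3.96), and PLCG2, a phospholipase, had 17 and 37, 1.96-fold higher (1.08 to 3.72). The common adaptors GRB2 and SHC1 had 1361 and 1452 reads and 1174 and 1327 reads.

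Proteins that restrain the receptors or direct their breakdown moved about as often as other genes. Of 21 tested, 3 were higher and 3 lower, or 28.6%, beside 30.9% of all tested genes. PTPRK, a receptor phosphatase that acts on EGFR, had 170 and 687 reads, 3.65-fold higher (95% interval 3.08 to 4.34). LRIG3, a relative of the ERBB inhibitor LRIG1, had 163 and 351, 1.94-fold higher, and SH3KBP1, which works with CBL in endocytosis, had 58 and 114, 1.77-fold higher. TNK2, a kinase of EGFR trafficking whose gene lies on chromosome 3, had 450 and 240 reads, 2.08-fold lower, and PTPN2, a cytosolic phosphatase, had 357 and 218, 1.82-fold lower. ERRFI1, which blocks the kinases of EGFR and ERBB2, had 496 and 590 reads, and CBL, the ubiquitin ligase of EGFR, had 833 and 795.

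Other receptor tyrosine kinases also moved in both directions, and none fell as far as EGFR. Of the 54 genes for the remaining receptors of this class, 30 were tested, and 8 were higher and 10 lower, a share of 60.0% beside 30.9% of all tested genes. With a sum of 50 reads or more, 26 were tested, and 4 were higher and 10 lower. At that limit 25.7% of all genes were past 1.5-fold. Without chromosome 3, 7 of 25 tested at the main limit were higher and 7 lower (56.0%), with a median log2 fold change of 0.07. Of all 12564 tested genes off that chromosome, 2054 were higher and 1645 lower. The lowest log2 fold change among the 30 kinases was -3.43, so the value of -5.28 for EGFR lay below all 30. That lowest value was of IGF1R, the receptor of insulin-like growth factor, from 1935 to 199 reads, 10.8-fold lower (95% interval 9.31 to 12.5). The ephrin receptor EPHB2 went from 56 to 8 reads (7.76-fold lower), the ephrin receptor EPHA3, on chromosome 3, from 7506 to 1576 (5.28-fold lower) and the pseudokinase PTK7 from 281 to 70 (4.45-fold lower). AATK, a kinase known from neurons, went from 41 to 162 reads, 3.56-fold higher. In control 2 of the 54 had a higher FPKM than EGFR, and in Akt1/2 DKO 13 did. For ERBB3 the numbers were 3 and 1, and for ERBB2 4 and 1.

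The deposited pathway annotation places 87 genes in ErbB signaling, all 10 members among them. Of the other 77, 62 were tested, and 5 were higher and 18 lower, a share of 37.1% beside 30.9% of all tested genes, with a median log2 fold change of -0.16. AKT1 and AKT2, the targets of the guides, belong to this list. Among those with a sum of 50 reads or more, SRC had the next largest change, followed by the calmodulin-dependent kinase CAMK2B (73 and 212 reads, 2.62-fold higher) and the RAC effector kinase PAK1 (771 and 334, 2.56-fold lower). Of the 18 lower genes, 5 lie on chromosome 3, where 352 of 754 tested genes were lower and 66 higher with a median log2 fold change of -0.54. Without chromosome 3 the pathway had 5 higher and 13 lower of 55, or 32.7%, with a median of -0.04. All tested genes off chromosome 3 had 2054 higher and 1645 lower of 12564, with a median of 0.03. AKT1 and AKT2 are among the 13 lower genes. The part of chromosome 3 in the pathway result was not tested further. None of the tested members lies on chromosome 3.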

How the data were processed

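RNA of 1 control and 1 Akt1/2 DKO library was compared, with groups taken from the genotype labels. Per gene, the deposited files give estimated counts, which are not normalized, and the FPKM values of the authors. The submitters' processing notes name fastp 0.20.0, TopHat, Cufflinks, edgeR and GRCh38.p10 without roles. The authors' deposited tables of fold changes, p-values, ontology classes and library correlation were not used.

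Estimated counts were rounded, genes were kept where both libraries summed to 10 reads or more, and TMM factors came from edgeR 4.0.16 (R 4.3.3). Folds are Akt1/2 DKO over control, with 95% exact (Clopper-Pearson) intervals given the summed reads. CPM values (computed here) carry exact Poisson intervals. A library at 0 was set to 3 reads for a bound. With 1 library per group no test was run. Depth was 9970825 and 10718654 reads, so 3 reads equal 0.306 and 0.276 CPM.

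The members and lists were chosen with earlier results of these data known. Named genes are the members, the other ERBB ligands, AKT1, AKT2, up to 5 genes per list (at least 1.5-fold, at least 50 reads, largest change) and the 2 nearest genes on each side. ADAM17, GRB2, SHC1, ERRFI1, CBL, STARD3, GRB7, NAPSA, DDC, GRB10 as a neighbour, and the markers were added after values were seen. Positions are from GENCODE 29 (GRCh38), which held 19571 identifiers. Protein sequences were not used here, and a few values that these rules name are not reported. Alternatives were other scalings, read filters, thresholds, FPKM, exon lengths and neighbour windows. Steps were tested on simulated data with Python 3.11.15 and scipy 1.17.1.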

Additional observations from a re-analysis of the deposited data

How the results depend on the processing

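The number of all tested genes past 1.5-fold stayed within 1.5 times of 4117 under the other scalings (total count, DESeq2 1.42.0 size factors, upper quartile), the authors' FPKM, the read filters, a prior count of 1 and the demand that the interval exclude no change, and a 2-fold threshold left 2390. The 4 of 8 members past 1.5-fold became 2 of 6 with at least 10 reads in each library, because ERBB4 and AREG are under that limit in a library. In that setting 2971 of 11973 genes were past 1.5-fold. The other settings gave 3 or 4 members. With deposited FPKM the shedding list had 2 genes past 1.5-fold in place of 3. EGFR made up 67.4% of receptor level in control with reads per kilobase of union exon length in place of FPKM, since the length differs. Of 25 shares 7 moved past their interval, and of these 7 the ones that moved by over 1.5 times were ERBB2 in control (18.1% to 10%) and NRG3 in Akt1/2 DKO (21.1% to 13.3%). Of 54 recomputed fold changes, 3 left their counting interval and kept their sign. They were EGFR (-4.90), ERBB2 (0.30) and ERBB3 (0.55) from deposited FPKM. The lengths that FPKM implies for these genes differed between the libraries, as given below. Why these lengths differed was not tested. The floor of 3 reads for any library with fewer, and lists without chromosome 3, were chosen after seeing the data. The former put AREG at -3.81. Depth limits ligands, which had 113 reads or fewer in the libraries together. No paired analysis was possible because each group has 1 library.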

Other observations

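The reads and FPKM of a gene together give the transcript length that the authors' estimate implies (reads divided by FPKM and by the library total). Over 10267 genes with at least 50 reads and 1 FPKM in each library, the implied lengths in the 2 libraries had a median log2 ratio of 0.00, and 81.9% were within 10%. EGFR had an implied length of 7.90 kb in control and 6.25 kb in Akt1/2 DKO, a log2 ratio of -0.34, and 4.68% of genes had a larger absolute ratio. ERBB2 went from 3.23 to 3.79 kb and ERBB3 from 5.36 to 4.81 kb. Transcript variants were not counted here.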
